A study of Caenorhabditis elegans with 2 samples.

Results

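The regions described here were the 333 autosomal promoter peaks of the transcription factor ETS-4 in whole young adults of the nematode Caenorhabditis elegans. They were chosen by position alone. Each is a region of the authors' IDR list (named for the irreproducible discovery rate, a measure of how alike regions rank in replicates) whose summit lay on an autosome and in a promoter, taken as the stretch from 1000 bp before to 200 bp after the 5′ end that the annotation gives a protein-coding gene. They were 333 of the 820 autosomal IDR peaks (40.6%, Wilson 95% interval 37.3 to 44.0), and the list held 1102 IDR peaks in all. Together they lay in the promoters of 409 of 17242 autosomal protein-coding genes, or 2.37%.

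The measurement was chromatin immunoprecipitation with sequencing (ChIP-seq), which finds the DNA that a protein is attached to. The animals were of strain RAF1713, which carries the insertion rrrSi400 on chromosome II and the mutation unc-119(ed3) on chromosome III. The insertion holds ets-4 joined to GFP between the gene's own promoter (Pets-4) and 3′ UTR, with unc-119(+) as its marker. The tagged gene is thus placed under that promoter, and in which cells its protein was present was not measured here. The animals were mixed sex young adults, 73 h old, grown from bleached eggs that had been held without food as L1 larvae. By the labels, the precipitation used anti-GFP, although their antibody field names ets-4, and the tag appears as eGFP in one field and as GFP-FLAG in another. Both biological replicates belonged to this 1 group and no untagged or mutant group was analysed here, so no test between conditions was possible. Whole animals mix all tissues, so weak attachment in many cells and strong attachment in few cannot be told apart.

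ETS factors are a family of transcription factors that share a DNA-binding domain and attach to a core of GGAA or GGAT, often within CCGGAA or CCGGAT. Factors of the GATA type, another family, attach to words such as TGATAA, and several of them direct gene expression in the worm intestine. Worm promoters often lie close to a neighbouring gene, and many worm transcripts are trans-spliced, so the annotated 5′ end of a gene need not be where transcription starts.

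The first set of sequences is shown because 94 of the 333 peaks held TGATAA within 50 bp of the summit. Each line gives a summit and the 50 bp to each side of it, from the RefSeq genome of build WBcel235 (ce11), 5′ to 3′ on the strand of the nearest gene, and capitals mark TGATAA or its reverse complement, TTATCA.
F16G10.6, chrII:2378707-2378807, minus strand: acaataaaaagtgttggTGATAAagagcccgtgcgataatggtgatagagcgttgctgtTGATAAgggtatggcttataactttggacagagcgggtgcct
pcp-1, chrIII:7758734-7758834, plus strand: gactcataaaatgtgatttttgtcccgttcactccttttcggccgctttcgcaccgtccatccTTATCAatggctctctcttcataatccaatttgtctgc
fbxc-29, chrII:915424-915524, plus strand: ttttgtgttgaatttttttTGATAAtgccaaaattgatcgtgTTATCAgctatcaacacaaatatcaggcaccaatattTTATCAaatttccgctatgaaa
spp-8, chrIV:8481452-8481552, plus strand: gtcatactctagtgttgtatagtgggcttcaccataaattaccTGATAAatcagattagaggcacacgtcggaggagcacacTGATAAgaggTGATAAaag
clec-78, chrIV:3988792-3988892, plus strand: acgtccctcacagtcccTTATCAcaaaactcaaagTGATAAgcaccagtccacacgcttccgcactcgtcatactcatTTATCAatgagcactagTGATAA
cpr-3, chrV:15298754-15298854, minus strand: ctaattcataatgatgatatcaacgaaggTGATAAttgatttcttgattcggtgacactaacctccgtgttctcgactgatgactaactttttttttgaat

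The second set is shown because these strong peaks, several of them at ribosomal protein and translation genes, share a word with one another and hold neither TGATAA nor an ETS word. The windows are of the same size, and capitals mark AGCGTGTTTT, or the word GGAGCGTGT, or their reverse complements. In rpl-35 both words overlap in 1 run.
rpl-3, chrIII:3867512-3867612, plus strand: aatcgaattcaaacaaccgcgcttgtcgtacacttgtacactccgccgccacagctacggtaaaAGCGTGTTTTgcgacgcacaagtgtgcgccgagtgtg
rpl-35, chrIII:7854633-7854733, plus strand: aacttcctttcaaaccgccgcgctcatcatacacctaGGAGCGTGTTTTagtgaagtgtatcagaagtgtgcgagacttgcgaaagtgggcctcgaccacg
iff-2, chrII:8561378-8561478, minus strand: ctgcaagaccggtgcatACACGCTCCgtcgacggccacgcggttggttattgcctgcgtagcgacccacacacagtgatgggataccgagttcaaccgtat
cdc-48.1, chrII:10563520-10563620, minus strand: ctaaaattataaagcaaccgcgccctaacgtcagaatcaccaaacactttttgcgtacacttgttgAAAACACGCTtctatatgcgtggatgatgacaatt
rpl-15, chrIV:654860-654960, minus strand: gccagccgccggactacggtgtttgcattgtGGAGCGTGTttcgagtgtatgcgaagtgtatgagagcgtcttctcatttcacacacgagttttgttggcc
cox-5A, chrIII:12905190-12905290, plus strand: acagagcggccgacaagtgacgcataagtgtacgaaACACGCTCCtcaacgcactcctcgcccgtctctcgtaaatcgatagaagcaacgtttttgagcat

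The third set is shown because ETS words were few, and it holds the 5 strongest of the 13 peaks with such a word. Each line is 29 bases around the word, on the strand that reads CCGGAA or CCGGAT, which stands in capitals.
srv-1, chrIII:6850430-6850458, minus strand: ttgattggcaacCCGGAAaacgtgtgtcc
cpr-1, chrV:11975343-11975371, minus strand: agagcatctgaaCCGGAAttcatctgtga
srlf-7, chrIV:7188970-7188998, minus strand: tgatatggcacaCCGGAAggcgacaagaa
clec-72, chrIV:3944650-3944678, minus strand: tacgatgaaacaCCGGATagagaaatgtg
K05F1.6, chrII:5782128-5782156, minus strand: ccctaacatttcCCGGATccccgcgacga

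The signal of a region is the value the authors' peak caller gave it, and it is compared here only within 1 list. In the list pooled over both replicates, the 333 promoter peaks had a median signal of 103.8, with quartiles of 87.64 and 127.8 and a range of 79.45 to 386.0. The 487 autosomal IDR peaks outside promoters had a median of 99.99 and the 102 promoter IDR peaks on X a median of 107.3. The 5564 other pooled regions with a summit in an autosomal promoter, called candidates here, had a median of 31.64 and reached at most 79.42, so every promoter peak had a higher pooled signal than every candidate. The strongest candidate stood at rank 1103, directly below the 1102 IDR peaks. This order and the gap between the medians therefore follow from how the IDR list was cut and are no result about promoters. The depth behind a region is unknown, so no error can be put on a single signal.

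The strongest promoter peak lay 44 bp upstream of tasp-1, which encodes a threonine aspartase, and in the promoter of K01G5.10 on the other strand. Its signal was 386.0 in the pooled list, 149.8 in replicate 1 and 235.0 in replicate 2, ranks 6 and 3 of the replicates' 30000 regions. The second lay 292 bp upstream of rpl-3, a protein of the large ribosomal subunit, with a pooled signal of 346.1, 139.5 in replicate 1 and 207.5 in replicate 2. These peaks stood at the top in both replicates. The third, 906 bp upstream of F16G10.6, had a pooled signal of 327.4, 164.4 in replicate 1 (rank 4) and 170.5 in replicate 2 (rank 9). The fourth lay between tag-340 and nhl-2, whose product is a cofactor of microRNA silencing, with 288.8 in the pooled list, 119.0 in replicate 1 and 171.3 in replicate 2. The fifth peak followed with a pooled signal of 237.8.

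The next 16 peaks had pooled signals between 237.8 and 197.4 and belonged to genes of several kinds. Growth and translation were represented by rpl-35 (237.8), by iff-2, which encodes the translation factor eIF5A (237.0), by rpl-20 (200.0), shared with Y17G9B.5, and by drr-2 (207.7), whose peak also lay in the promoter of the histone methyltransferase gene set-16. Chromatin genes were cbp-1, the worm CBP/p300 acetyltransferase (228.9), and his-37, a histone H4 gene (225.2). Protein handling was represented by cdc-48.1, an AAA ATPase that extracts ubiquitinated proteins (212.2), and sec-61.G, a subunit of the channel through which proteins enter the endoplasmic reticulum (204.0). The others were cav-2 (224.9), a caveolin, egg-5 (222.9), Y54G11A.2 (210.4), the kinase gene mekk-3 (208.4), wip-1 with larp-1 (207.3), kel-3 (205.5), the chemoreceptor gene sre-23 (204.7) and F54D5.7 (197.4). All 20 of the strongest were among the 1102 strongest regions of both replicates, 7 lay in promoters on both strands, 2 held TGATAA and 0 held an ETS word.

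The replicates ordered the promoter peaks differently. In replicate 1 their signal had a median of 43.74 (12.69 to 164.4) and their rank a median of 616 (4 to 25843). In replicate 2 the median signal was 64.55 (26.35 to 235.0) and the median rank 506 (3 to 7701). Of the 333, all had a region in replicate 2 and 2 had none in replicate 1, which were the peak 27 bp upstream of cpr-9 and the peak 287 bp upstream of T28B8.1. Over the 331 with both values, Spearman's rho between the replicates' signals was 0.32, a description over regions that had been selected for high signal in the pooled list. The top was shared, since 20 peaks were among the 100 strongest regions of both replicates, out of 34 in replicate 1 and 38 in replicate 2.

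**Figure D1:**
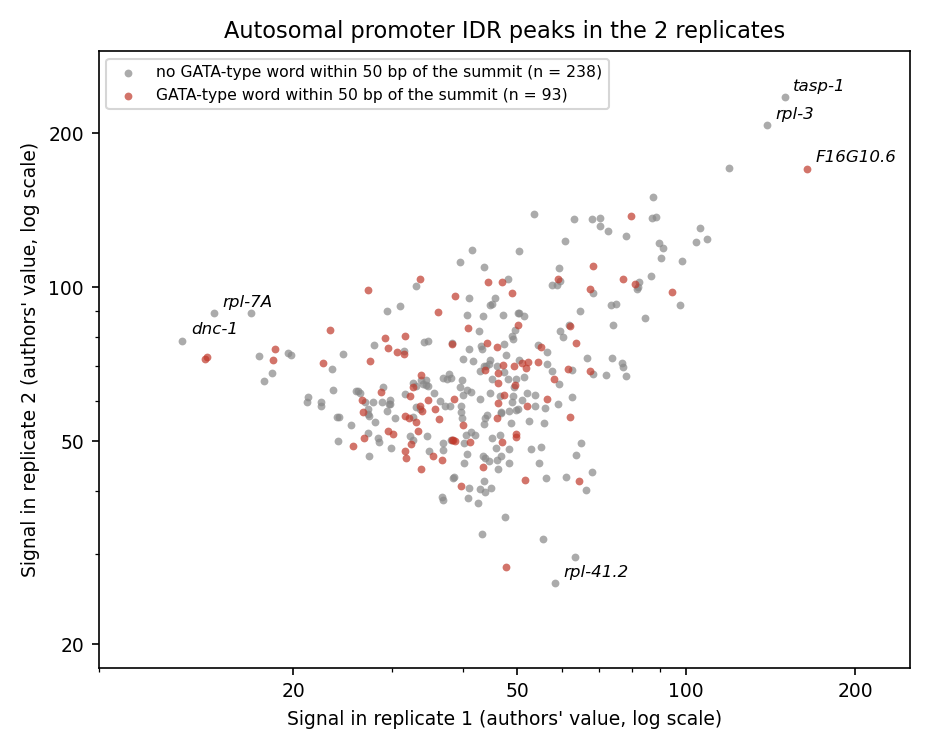
Signal of each promoter peak in replicate 1 (horizontal, log scale) against replicate 2 (vertical, log scale), 1 point a peak, for the 331 peaks with a region in both lists; colour shows whether the GATA-type word lay within 50 bp of the summit. The strongest peaks, tasp-1, rpl-3 and F16G10.6, are high in both, a tail with dnc-1 and rpl-7A runs to the far left, a few peaks with rpl-41.2 lie at the foot, and both colours spread over the whole range.

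Below the top, more peaks had a low rank in replicate 1 than in replicate 2. There were 43 beyond rank 3000 in replicate 1 and 6 in replicate 2, and 10 beyond rank 10000 in replicate 1 and 0 in replicate 2. Taking the gap as the ratio of the ranks, the widest in favour of replicate 2 was at rpl-7A, another ribosomal protein gene, with set-21, at rank 163 with a signal of 89.07 in replicate 2 and rank 20358 with 14.42 in replicate 1. The other 4 of the 5 with the widest gap in that direction were at dnc-1, the large dynactin subunit (ranks 25843 in replicate 1 and 252 in replicate 2), cmtr-1, beside a snoRNA gene (14300 and 165), clc-13 with clec-241 (21450 and 338) and F31F7.1 (21934 and 346). In the other direction the ratios were smaller. The peak of rpl-41.2 was at rank 225 in replicate 1 and 7701 in replicate 2, with signals of 58.52 and 26.35. Next by that ratio came rpa-2 (163 in replicate 1 and 5404 in replicate 2), pkc-3 (137 and 2176), swsn-7 (266 and 4174) and sptf-2, an Sp-family transcription factor gene (434 and 6216).

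Of the 333 peaks, 183 overlapped by at least 1 bp the 1102 strongest regions of both replicates, which is 55.0% (49.6 to 60.2), and 14 overlapped those of neither (4.20%). The share in replicate 1 was 66.7% and that in replicate 2 was 84.1%. Intronic IDR peaks outside promoters were in both at 44.4%, a difference of 10.6 points (Newcombe 95% interval 1.9 to 19.0). Intergenic IDR peaks outside promoters were in both at 59.0%, and the interval of that difference, -12.5 to 4.6 points, includes 0. Regions are not replicates, and all such intervals cover counting error only.

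Summits gathered just upstream of the annotated 5′ end. The median position was -200 bp, negative being upstream, with quartiles of -409 and -82 bp. There were 181 peaks (54.4%, 49.0 to 59.6) from 300 bp upstream to the 5′ end, against 29.1% of the candidates, a difference of 25.2 points (19.7 to 30.6). The fullest 100 bp ran from 200 to 100 bp upstream and held 75 peaks. Downstream of the 5′ end lay 36 peaks (10.8%) and 22.4% of the candidates, a difference of -11.5 points (-14.7 to -7.6). The annotation placed 268 summits (80.5%) in intergenic sequence, 43 (12.9%) in an exon and 22 (6.61%) in an intron of some gene.

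**Figure D2:**
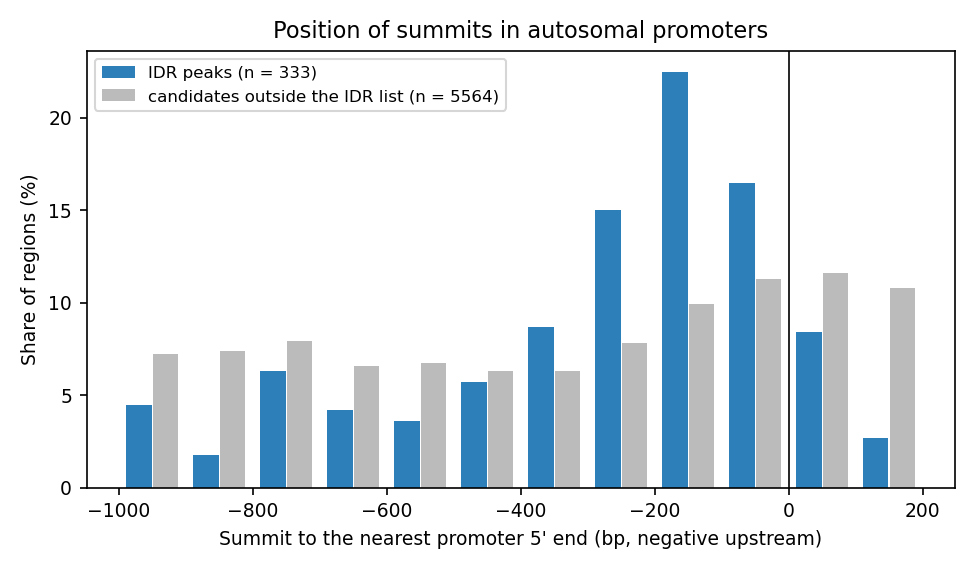
Share of regions (vertical, %) by the distance in bp from the summit to the nearest promoter 5′ end that contains it (horizontal, 100 bp bins, negative upstream), for the 333 promoter peaks in blue and the 5564 candidates in grey. The peaks rise to 22.5% in the bin from 200 to 100 bp upstream, where the candidates have 9.96%, and fall below the candidates downstream of the 5′ end.

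At the bounds of the promoter window, peaks just inside and just outside had signals of like size. Of the peaks in 1 promoter, those just inside the upstream bound were 995 bp from mef-2, with a signal of 81.23, and from ech-9, with 103.8, and the nearest outside it were at wwp-1 (91.67) and wdr-83 (81.65). Just inside the downstream bound were E01G4.3 at 196 bp (89.70) and hrpk-1 at 186 bp (137.9), and just outside it C01A2.6 at 213 bp (92.93) and T05H4.11 at 217 bp (88.17). The weakest promoter peaks were at dct-18 (79.51) and pho-14 (79.45), next to the strongest candidates outside the IDR list, at acs-14 (79.42) and cif-1 (79.18).

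Most peaks, 255, lay in the promoter of 1 gene, 77 in those of 2 and 1 in those of 3. The promoters were on both strands for 69 peaks (20.7%, 16.7 to 25.4), the arrangement of a divergent gene pair, and such a peak cannot be given to either gene. No such share is given here for the candidates, so the 20.7% is a description only. The 5 strongest of the 69 were tasp-1 with K01G5.10, tag-340 with nhl-2, iff-2 with F54C9.14, cav-2 with C56A3.6 and drr-2 with set-16. Peaks in promoters on both strands had a median signal of 111.9 and the others 102.9. They were among the strongest of both replicates at 66.7% against 51.9%, a difference of 14.8 points (1.6 to 26.4). Conversely, 3 genes had 2 promoter peaks each. These were cpr-9, a cathepsin B-like protease gene (855 and 27 bp upstream, with signals of 194.6 and 87.42), eef-1B.1, an elongation factor subunit gene (6 and 719 bp, 111.9 and 110.6) and ego-1, an RNA-dependent RNA polymerase gene (480 and 984 bp, 106.8 and 80.34).

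Regions of 1 fixed width, 370 bp, made up 305 of the 333. There were 27 narrower ones, down to 92 bp, and 1 wider, that of F16G10.6 at 465 bp. The narrow peaks were strong, with a median signal of 205.5 against 101.7 for all others, and they included 16 of the 20 strongest peaks. Their share, 8.11%, was above the 3.70% of autosomal IDR peaks outside promoters by 4.4 points (1.2 to 8.1). It was near the 7.84% of promoter IDR peaks on X (0.3 points, -7.0 to 5.4). Against intergenic IDR peaks outside promoters, at 4.39%, the interval of -0.8 to 7.7 points includes 0, and against intronic ones, at 3.41%, it was 0.4 to 8.5. Narrow peaks included those of tasp-1 (257 bp), rpl-3 (233 bp), rpl-35 (172 bp) and iff-2 (160 bp), and 10 of the 27 lay in promoters on both strands.

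The word that set the promoter peaks most apart from the candidates was TGATAA, searched on both strands within 50 bp of the summit. It was in 94 of 333 peaks (28.2%, 23.7 to 33.3), in 12.2% of the candidates, a difference of 16.0 points (11.4 to 21.2), and in 11.0% of windows of the same length centred 200 bp upstream of every autosomal 5′ end, a difference of 17.2 points (12.6 to 22.3). Among all words of 6 bases it had the largest difference from the candidates, followed by GAGAGA and then CTGATA, which can overlap TGATAA. It was no mark of promoters among the IDR peaks, since those outside promoters held it at 28.3%, a difference of -0.1 points (-6.3 to 6.2), and promoter peaks on X at 23.5%. In the lists of single replicates, promoter regions among the 1102 strongest held it at 22.7% in replicate 1 and 27.2% in replicate 2, against 12.5% and 12.6% of the other promoter regions of the same list.

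TGATAA lay close to the summits. Its share was 28.2% at the summit, 24.3% in the window centred 100 bp before it and 21.3% in the window 100 bp after it, and between 7.81% and 11.7% in windows from 200 to 600 bp away. There were 134 copies in the 94 peaks, of which 64 peaks held 1 copy, 30 held 2 or more and 8 held 3 or more. The copies had no fixed strand, 74 being on the strand of the gene and 60 on the other. Among the peaks printed above, clec-78, a C-type lectin gene, held 4 copies, and fbxc-29 and spp-8 held 3 each.

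**Figure D3:**
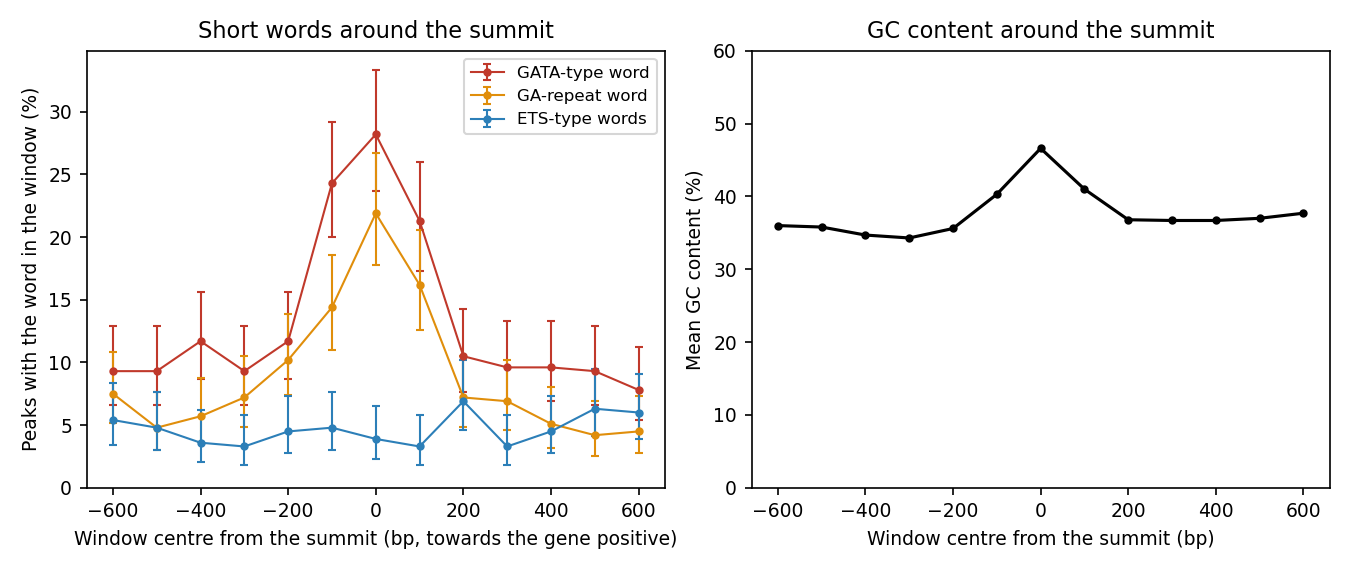
Left, share of the 333 promoter peaks (vertical, %) with the GATA-type word (TGATAA), the GA-repeat word (GAGAGA) or an ETS-type word in a window of 50 bp to each side of each distance from the summit (horizontal, bp, positive towards the gene); bars are Wilson 95% intervals. Right, mean GC content of the same windows. The GATA-type and GA-repeat words and GC content have their maximum at the summit (28.2%, 21.9% and 46.6%), and the ETS-type words have none, staying between 3.30% and 6.91%.

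No excess of ETS words was seen at the promoter peaks. CCGGAA or CCGGAT was in 13 of 333 (3.90%, 2.30 to 6.56), against 6.47% of the candidates (difference -2.6 points, -4.3 to 0.2), 4.58% of all autosomal promoters (-0.7 points, -2.3 to 2.0) and 5.54% of autosomal IDR peaks outside promoters (-1.6 points, -4.5 to 1.5). These 3 intervals include 0, and their upper bounds allow an excess of at most 2.0 points. CCGGAA by itself was in 2.40% of the peaks and 4.74% of the candidates, with an interval of the difference, -3.7 to -0.0 points, that ended just below 0. In windows of 50% GC or more, ETS words were in 3.94% of 127 peaks and 9.37% of the candidates (-5.4 points, -8.4 to -0.2), while the intervals in the strata of 40% to 50% (-6.0 to 2.2 points) and under 40% (-3.3 to 5.2 points) include 0. That these letters were not near a summit says nothing on where ETS-4 can attach. The 5 strongest peaks with such a word had pooled signals of 168.4 at srv-1, a chemoreceptor gene, 150.3 at cpr-1, a cathepsin B-like protease gene, 118.2 at srlf-7, 111.1 at clec-72 and 109.9 at K05F1.6. In cpr-1 the ETS word and TGATAA stood in the same window, as they did in 4 of the 13 peaks.

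Other words were searched in the same windows, on both strands. Many words, classes and kinds of peak were compared, and the intervals are not adjusted for their number, so bounds near 0 carry little weight. The repeat GAGAGA was in 73 peaks (21.9%) against 10.4% of the candidates (11.5 points, 7.3 to 16.3) and 24.0% of the IDR peaks outside promoters. CCCGCC (7.81% against 3.72%, 4.1 points, 1.6 to 7.5) and the E-box CACGTG (5.41% against 2.59%, 2.8 points, 0.8 to 5.8) were more frequent than in candidates, but their shares at the other autosomal IDR peaks were 5.34% and 5.13%, and the intervals of those differences, -0.9 to 6.2 and -2.8 to 3.7 points, include 0. The word CCAAT was less frequent than in candidates (13.8% against 20.3%, -6.5 points, -10.0 to -2.3), and against the other IDR peaks, at 17.5%, the interval of -8.5 to 1.5 points includes 0. TATAAA, the core of the TATA box, was more frequent than at the other autosomal IDR peaks, with 8.41% against 3.49%, a difference of 4.9 points (1.7 to 8.6), and less frequent than in all autosomal promoters, with 13.2% (-4.7 points, -7.3 to -1.2). Against the candidates, at 7.24%, and the promoter peaks on X, at 2.94%, the intervals of -1.5 to 4.7 and -0.5 to 9.4 points include 0. The word GGTTCGA, part of the internal promoter of tRNA genes, was in 0.901% against 3.08% of the other autosomal IDR peaks (-2.2 points, -4.2 to -0.1). For TGACTCA (2.10% against 1.64%) the interval of the difference, -1.4 to 2.8 points, includes 0. Among the promoter peaks TATAAA was rarer in the 166 stronger than in the 167 weaker, 4.22% against 12.6%, a difference of -8.4 points (-14.6 to -2.4). CCAAT was more frequent in the stronger, 18.1% against 9.58% (8.5 points, 1.0 to 16.0). TGATAA was at 27.7% and 28.7% (-1.0 points, -10.6 to 8.6), and its peaks had a median signal of 103.5 against 104.2 without it.

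Base composition moved with these words. The windows around the summits had a mean GC content of 46.6% (SD 8.74 over 333 peaks), against 41.9% (SD 8.77) for the candidates and 34.0% for all autosomal promoters. The IDR peaks outside promoters had nearly the same mean, 46.3% (SD 8.33), and the promoter peaks on X had 49.4% (SD 8.34). GC content fell to 40.3% and 41.0% within 100 bp to either side. TGATAA is poor in G and C, and 4 of the 94 peaks with it had a GC content of 50% or more. Below 40% GC it was in 60.7% of 89 peaks and 19.6% of candidates, a difference of 41.1 points (30.6 to 50.7), between 40% and 50% GC in 30.8% and 8.26% (22.5 points, 14.8 to 31.4), and from 50% GC in 3.15% of 127 peaks and 2.82% of candidates (0.3 points, -1.9 to 5.1). The difference from candidates was thus seen in both lower strata and not detected in the highest. GAGAGA differed in both upper strata, by 14.4 points (7.2 to 23.1) and 11.9 points (4.5 to 20.4), and not below 40% GC (2.3 points, -2.5 to 10.4).

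The promoter peaks with and without TGATAA lay differently among genes. It was in 10 of the 69 peaks in promoters on both strands (14.5%) and in 31.8% of the others, a difference of -17.3 points (-26.0 to -5.8). Within 300 bp upstream of a 5′ end it was in 34.3% of peaks and elsewhere in the promoter in 21.1%, a difference of 13.2 points (3.5 to 22.4). Peaks with GAGAGA held it less often, 16.4% against 31.5% (-15.1 points, -24.1 to -3.6), and 12 peaks held both. By chromosome its share ran from 15.9% of 69 peaks on III to 36.5% of 74 on V, 2 chromosomes whose Wilson intervals, 9.14 to 26.3 and 26.4 to 47.9, do not overlap. In these comparisons, and for the peaks beside small RNA genes below, GC content was not held equal, although the share of TGATAA varied with it. At 171 peaks neither TGATAA nor GAGAGA nor an ETS word was found.

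**Figure D4:**
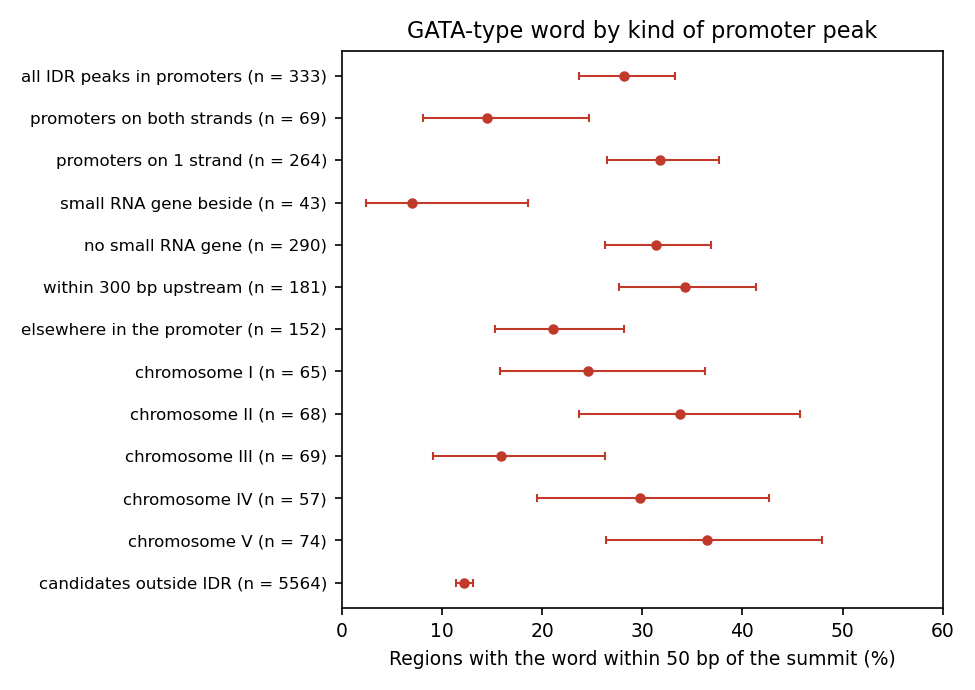
Share of regions with the GATA-type word within 50 bp of the summit (horizontal, %) for the promoter peaks as a whole, for kinds of promoter peak, for each autosome and for the candidates outside the IDR list; points are shares, bars Wilson 95% intervals, and n is the number of regions. Peaks beside a small RNA gene (6.98%) and in promoters on both strands (14.5%) are lowest among the peaks, and the candidates are at 12.2%.

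The shared words of the strongest housekeeping promoters were found by comparing the windows of rpl-3, rpl-35 and iff-2, printed above, and of cbp-1, not printed, so they were chosen after the sequences had been seen, and no weight can be put on their presence in those peaks. AGCGTGTTTT, shared by rpl-3 and rpl-35, was in 1 further peak, that of cdc-48.1, in 0 of 5564 candidates and in 8 of 17242 promoter windows (0.0464%). GGAGCGTGT, shared by rpl-35 and iff-2, was in 7 peaks. The others were tasp-1 (386.0), rpl-15 (153.7), cox-5A, a subunit of cytochrome c oxidase (152.5), crt-1, calreticulin (151.6), and tba-2, an alpha-tubulin (94.11). It was in 2 candidates (0.0359%) and in 8 promoter windows. The peaks that were not used to find the words thus ranged from the strongest to rank 214 of 333.

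Small RNA genes lay within 100 bp of 43 promoter peaks (12.9%, 9.73 to 16.9), against 1.96% of the candidates, a difference of 11.0 points (7.7 to 15.0). They were snoRNA genes at 21 peaks, tRNA genes at 14, snRNA genes at 8 and a miRNA gene at 1. Among all autosomal IDR peaks outside promoters the share was 16.6%, and the interval of the difference, -8.5 to 1.3 points, includes 0. So do those for intergenic peaks outside promoters (13.2%, -6.5 to 5.4) and promoter peaks on X (5.88%, -0.1 to 12.2). Among intronic IDR peaks outside promoters the share was 24.9%, higher than among the promoter peaks (-12.0 points, -19.1 to -5.2). The 43 peaks tended to lie farther from the protein-coding 5′ end, with a median position of -370 bp against -172 bp for the other promoter peaks. Still, 15 of the 43 lay within 300 bp upstream of it (34.9% against 57.2%, -22.4 points, -36.0 to -6.3). Of the 43, 3 held TGATAA (6.98% against 31.4%, -24.4 points, -31.6 to -11.7). The strongest were at egg-5 beside the spliced-leader snRNA gene sls-2.4 (222.9), sre-23 beside a snoRNA gene (204.7), gcy-33 with cpr-9 beside a tRNA gene (194.6), F59C6.18 beside a snoRNA gene (187.0) and H41C03.3 beside sls-2.1 (185.7). For such peaks the protein-coding promoter and the small RNA gene cannot be told apart.

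Gene lists were counted against the 2.37% of all autosomal protein-coding genes with a peak, as descriptions. Translation, secretion and acidification lists lay above it. Some pooled region lay in the promoter of 33.4% of all autosomal genes, and these lists were above that share too. Such regions lay at 57 of 74 ribosomal protein, 21 of 37 translation factor, 25 of 38 secretory, 22 of 37 chaperone and 12 of 19 vacuolar ATPase genes. The excess of these lists was thus not confined to the IDR peaks. Of 74 autosomal genes listed for cytosolic ribosomal proteins 13 had a peak (17.6%, 10.6 to 27.8), with a median signal of 105.2 beside 103.8 over all promoter peaks. The list leaves out rpl-7A, which had a peak, and with it the count was 14 of 75. The strongest 6 were rpl-3 (346.1), rpl-35 (237.8), rpl-20 (200.0), rps-19 (154.4), rpl-15 (153.7) and rpl-1 (118.1). In replicate 1 their ranks were 9, 39, 166, 616, 730 and 324 and in replicate 2 they were 5, 16, 27, 73, 52 and 399, so that the first 5 ranked higher in replicate 2. For 9 of the 13 the ribosomal protein gene was the nearest gene of the peak, and 1 of the 13, rpl-1, held TGATAA.

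Translation factors had 4 of 37 (10.8%): iff-2 (237.0), eef-1B.1 (111.9), abcf-2 (104.7), nearer to ant-1.1, and eef-1G (83.38). The list of the secretory pathway and entry into the endoplasmic reticulum had 6 of 38 (15.8%, 7.44 to 30.4). These were sec-61.G (204.0), sec-61.B and trap-3, which share 1 peak (184.0), the signal peptidase subunit gene spcs-3 (124.1), whose peak was nearer to K12H4.5, sec-61.A (105.2), whose peak is that of rps-18, and trap-1 (98.92). Chaperones had 5 of 37 (13.5%, 5.91 to 28.0), 3 of which belong to the endoplasmic reticulum: crt-1 (151.6), enpl-1 (134.9) and pdi-1 (90.74). The other 2 were hsp-60, the mitochondrial chaperonin (116.8), and cct-8 (90.76), and both peaks were nearer to another gene. TGATAA was found at 0 of these chaperone and secretory peaks. The unfolded protein response factor xbp-1, the only 1 of 28 genes in the list of bZIP and stress factors, had a signal of 188.3 pooled, 97.57 in replicate 1 (rank 22) and 92.38 in replicate 2 (rank 147), with its summit 36 bp upstream.

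Vacuolar ATPase genes, whose products acidify lysosomes and other compartments, had 4 of 19 (21.1%, 8.51 to 43.3): vha-13 (142.9), vha-2 (114.4), vha-1 (92.55) and vha-8 (82.32), whose peak was nearer to C17H12.2. Autophagy and lysosome genes had 3 of 30, with an interval of 3.46% to 25.6%, namely lgg-2 (101.7), lgg-1 (101.7) and bec-1 (90.06). Regulators of mRNA turnover had 4 of 38 (10.5%), nhl-2 (288.8), larp-1 (207.3), ntl-2 (147.0) and etr-1 (140.6), and chromatin regulators 3 of 38 (7.89%), cbp-1 (228.9), set-16 (207.7) and the H3K36 methyltransferase gene met-1 (121.0). For nhl-2, larp-1 and set-16 another gene was nearer.

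The list of intestine genes lay above the background too. Of 24 autosomal genes 20 had some pooled region in the promoter and 5 had a peak (20.8%, 9.24 to 40.5). Some pooled region lay at 33.4% of all autosomal genes, so the excess of this list was not confined to the IDR peaks either. All 5 peaks held TGATAA: those of the cathepsin B-like protease genes cpr-1, cpr-3 and cpr-4, the microvillar actin gene act-5 and the lysozyme gene lys-8. All 5 summits lay between 104 and 245 bp upstream of the gene, and the gene was the nearest. Their pooled signals were 150.3, 139.2, 121.5, 104.6 and 99.15, in replicate 1 they were 47.09, 33.63, 58.21, 47.39 and 27.35, and in replicate 2 they were 102.4, 103.6, 65.98, 61.58 and 71.64. By rank, cpr-1 stood at 463 in replicate 1 and 96 in replicate 2, cpr-3 at 1521 and 87, cpr-4 at 228 and 474, act-5 at 451 and 586 and lys-8 at 3271 and 362, so the order was not of 1 direction, and 3 of the 5 were among the strongest regions of both. Innate immunity genes, several of them expressed in the intestine, had 3 of 42 (7.14%): the saposin-like genes spp-8 (151.7) and spp-18 (125.7) and again lys-8, and all 3 held TGATAA. The yolk protein gene vit-6, the only autosomal gene of its list, had a signal of 81.58, 45.90 in replicate 1 and 48.38 in replicate 2, and its peak held no TGATAA.

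ETS-4 is known for work on fat metabolism and ageing. Fat storage and lipid metabolism had 2 of 52 (3.85%, 1.06 to 13.0), the acyl-CoA synthetase gene acs-1 (158.2) and dgat-2 (115.4), whose peak was nearer to fbxa-108. Insulin signalling and outputs of DAF-16, the FOXO factor of that pathway, had 2 of 33 (6.06%, 1.68 to 19.6), the insulin-like peptide gene ins-7 (138.5) and dod-3 (114.0). Both shares were above 2.37%, and both intervals include it.

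Among markers of other tissues, the lists for neurons and muscle had shares near the background, with egl-30 (109.1) of 38 genes (2.63%, 0.466 to 13.5) and unc-112 (102.9) of 32 (3.12%, 0.554 to 15.7). The list for cuticle and hypodermis had 1 of 195 (0.513%, 0.0906 to 2.85), wrt-3 (152.3), beside a snoRNA gene. Germline (47 genes), sperm (44), pharynx (19) and vulva with somatic gonad (22) had 0, as had the proteasome (33), iron and metal (14), GATA factor (9) and ETS family (5) lists. With 0 of 47 germline genes the Wilson interval still reaches 7.56%, so a share at the background was not excluded for any of these lists. Of the 33 proteasome genes 23 had some pooled region in the promoter, against 33.4% of all autosomal genes.

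Chemoreceptor genes, the largest list, lay below the background, with 5 of 1238 (0.404%, 0.173 to 0.942). Some pooled region lay at 203 of the 1238, also below the 33.4% of all autosomal genes, so the lower share was not confined to the IDR peaks. The 5 were sre-23 (204.7), srv-1 (168.4), srh-269 (166.5), srz-62 (158.3), with 4 copies of TGATAA, and srh-70 (86.79). Of these 5 peaks, 3 were beside a small RNA gene. Nuclear hormone receptor genes had 3 of 247 (1.21%), nhr-8 (155.5), nhr-291 (93.20) and nhr-68 (80.35), with H12C20.7 nearer, histones 1 of 77, his-37, and mitochondrial ribosomal proteins 1 of 66, mrpl-23 (102.4), in contrast to the cytosolic ones.

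**Figure D5:**
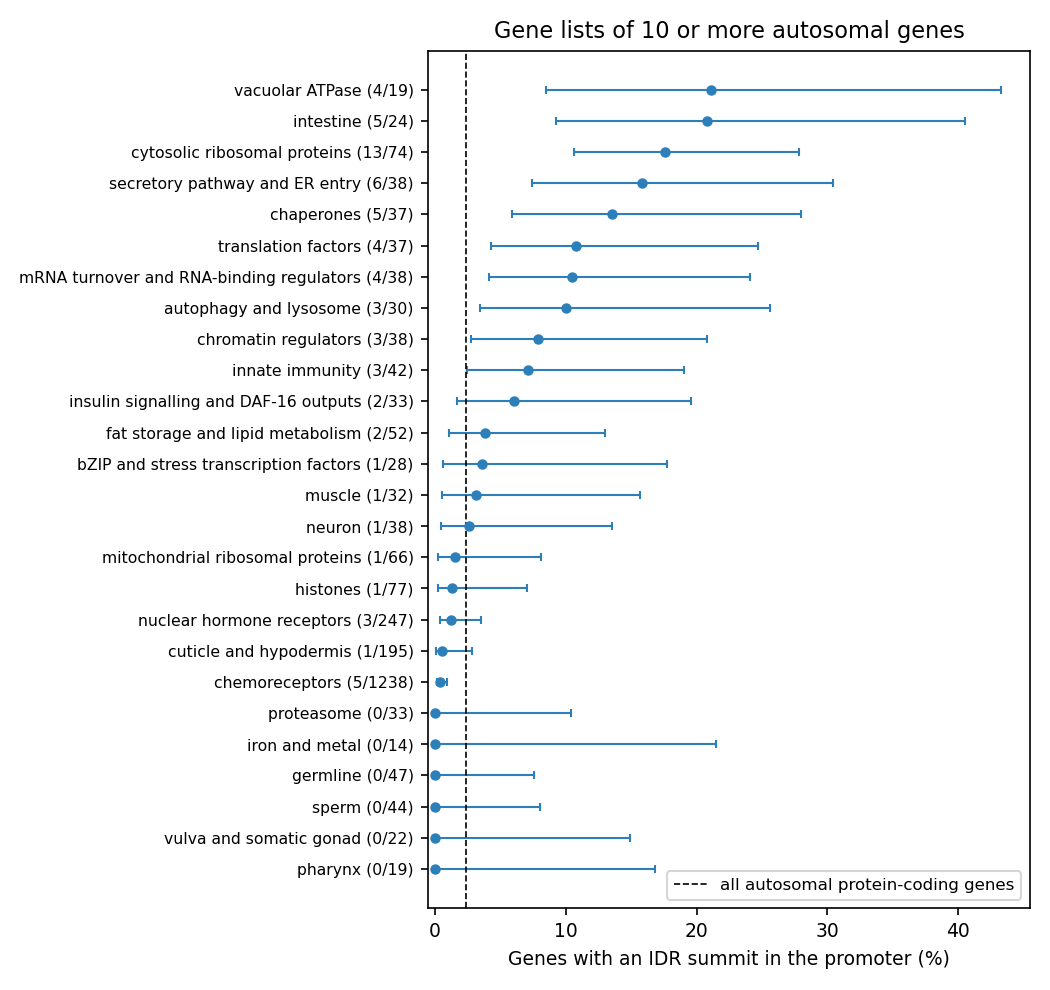
Share of the autosomal genes of each list with an IDR summit in the promoter (horizontal, %), for the lists of 10 or more genes, with Wilson 95% intervals and, in brackets, the genes with a peak of all genes; the dashed line is the 2.37% of all autosomal protein-coding genes. Vacuolar ATPase, intestine, cytosolic ribosomal protein, secretory and chaperone lists are the 5 highest and have their whole interval above the line, and chemoreceptors have it below.

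The promoter peaks were spread over all autosomes, with 65 on I, 68 on II, 69 on III, 57 on IV and 74 on V. Relative to its genes, III had the most, with a peak at 3.52% of them (2.88 to 4.30), and V the fewest, with 1.72% (1.40 to 2.12). A peak in several promoters counts for each gene, so the 69 peaks on III gave 93 genes. Intervals over genes, here and for the gene lists, take the genes as independent and are too narrow where peaks are shared. The autosomal IDR peaks of each chromosome were in promoters at like shares, from 38.3% on IV to 42.6% on III. On V, 41.9% of the 74 peaks were among the strongest of both replicates, and on the other 4 autosomes the share ran from 57.9% to 59.4%, a difference that was not tested.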

How the data were processed

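ChIP-seq was measured in 2 biological replicates of 1 group. Per the text files deposited beside them, the authors called 1 list of peaks and background per replicate and 1 pooled list, from alignments and a control file, and made the IDR list from these. The lists, on build ce11, were used as deposited; the signal value is the authors' caller's own, and the deposited −log10 q value was used only to find regions at its ceiling. For the aligner, caller, IDR threshold and depth, nothing was given in the sources used here.

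Summits were placed against Ensembl release 115 (WBcel235), and windows of 50 bp to each side read from the RefSeq genome of that assembly. Coordinates are 1-based. Shares have Wilson and differences Newcombe intervals (95%), and no p-values were computed. The 29 gene lists and the members were chosen with earlier results of these data known, and the kinds of peak, GC strata, 6-base words and shared words after the data were seen. Named were the genes of the 20 strongest peaks, of each list (at most 6), of the 5 widest replicate gaps each way, of the 5 strongest divergent and ETS-word peaks, and at the bounds; cpr-9, T28B8.1, eef-1B.1 and ego-1, the peaks beside small RNA genes and the genes holding shared words were named after their values were seen. Sequences were chosen, after values were seen, from peaks on chromosomes II to V whose window overlaps no exon. The TGATAA set leaves out some stronger eligible peaks (F19B2.5, srz-62, C52E2.2), the second set holds peaks with a shared word and leaves out cbp-1, and the short ETS-type stretches could overlap exons. Versions were matplotlib 3.10.9, scipy 1.17.1, pandas 2.3.3, numpy 2.4.6 and Python 3.11.15. Promoter assignment, word search and intervals were tested on simulated data.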

Additional observations from a re-analysis of the deposited data

How the results depend on the processing

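Of 65 alternative values for the 9 results, 43 stayed and 22 did not stay within the Wilson interval of the main share or, for counts of genes, within 1.5 times the main count. The promoter share of autosomal IDR peaks was 31.2% with narrow promoters (500 bp before to 100 bp after the 5′ end), 57.2% with wide ones (2000 and 500 bp), 44.1% among the 551 strongest IDR peaks and 48.8% with the 5′ ends of all transcripts. The genes with a peak, 409, were 297 with the narrow and 626 with the wide promoters, 359 without peaks beside small RNA genes, 221 with the 551 strongest IDR peaks and 739 by nearest 5′ end at any distance. The share among the strongest regions of both replicates was 85.7% among the 551 strongest, 48.3% with reciprocal overlap and 84.7% with 3000 regions. ETS words were in 2.10% within 25 bp, 7.81% within 100 bp, 1.80% for ACCGGAA or ACCGGAT and 64.6% for the 4-base core. That core was not counted in the candidates or in other promoters, so its 64.6% cannot be read as an excess of ETS sites. TGATAA was in 16.8% within 25 bp and 39.6% within 100 bp. Promoters on both strands were 14.5% with the narrow and 27.9% with the wide promoters. Ribosomal protein genes numbered 7 among the 551 strongest. With 1 replicate's own 1102 strongest regions in place of the IDR list, the promoter share was 35.0% to 41.9%, genes 369 to 421, ETS words 3.48% to 4.12%, TGATAA 22.7% to 27.2%, both strands 20.3% to 23.4%, small RNA genes 11.7% to 12.8%, the 300 bp upstream 46.0% to 53.6% and ribosomal protein genes 12 to 13. Of these, the promoter share of 35.0%, TGATAA at 22.7% and the 300 bp upstream at 46.0%, all from replicate 1, lay outside the main Wilson intervals. The cause of the shifts under any setting was not tested. Counting rpl-7A, an alternative added after the data were seen, gave 14 of 75 ribosomal protein genes. No paired analysis was possible because there was 1 group. With 2 replicates of unknown depth, no error can be given for a single region.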
